A study of Mus musculus with 4 samples.

Results

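The regions described here are 5 kb tiles of the mouse autosomes that were rich in 5-hydroxymethylcytosine (5hmC) in neural progenitor cells (NPC) and also in the embryonic stem cells (ESC) they were made from. Of 452909 tiles kept on chromosomes 1 to 19, 2122 (0.469%) met the rule, and they are called both-enriched tiles below. A kept tile held at least 5 reads in the summed inputs and stayed below an upper limit that 47 tiles passed. A both-enriched tile had, in each cell type, at least 20 reads in the 5hmC library and at least 2 times as many 5hmC reads as input reads after both were divided by their library totals. This fold over the cell type's own input is called the enrichment, and 0.5 reads were added to each count before it was taken. At most 75% of its NPC 5hmC reads lay on a single strand. The choice thus rests on the 5hmC and input reads of all 4 libraries, so that the enrichments of these tiles and their NPC/ESC ratio describe what was selected and carry no test.

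NPC were Sox1-GFP-positive cells with a rosette-like form, taken at day 9 of monolayer differentiation in N2B27 medium. ESC were the parental 46C line of 129/Ola background, which is a single cell line, grown in serum with leukemia inhibitory factor. Neither group was treated with siRNA or shRNA. DNA from each was sheared, barcoded, mixed in a single tube, denatured and precipitated with a 5hmC antibody, and a part of the mix was kept as input. There was 1 library per group, so that the spread between cultures is unknown. In DNA from many cells, a lower share of cells with the mark and less of it per cell cannot be told apart. Intervals are 95% intervals, cover counting error only, and treat reads as independent, which copies made by PCR are not. Intervals of shares of tiles treat tiles as independent too, which clustered tiles are not.

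5hmC is made when TET dioxygenases oxidise 5-methylcytosine. It can be a step on the way to unmethylated cytosine, and it can also persist as a mark of its own. In mouse ESC it is known from gene bodies, enhancers and promoters of intermediate CpG density. In the neural lineage it accumulates in mature neurons, mostly over the bodies of active genes. An antibody on denatured DNA reports how much 5hmC a fragment carries, not which base carries it.

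The NPC 5hmC library held 1709355 distinct reads on chromosomes 1 to 19 and the NPC input 6438000, against 7042662 and 4944294 for ESC. A kept tile held on average 3.755 NPC 5hmC reads and 14.15 NPC input reads, against 15.5 ESC 5hmC reads and 10.9 ESC input reads. The minimum of 20 NPC reads was therefore the hardest step of the rule: 4951 kept tiles (1.09%) reached it. In all, 60853 kept tiles (13.4%) reached 2-fold enrichment in NPC and 49984 (11%) in ESC. Another 8253 tiles passed every limit except that of 20 NPC reads, and 350 of them held 19. Among the both-enriched tiles, 304 held exactly 20 NPC reads and 1105 held 20 to 24. A further 463 tiles failed the strand limit alone. Among 46648 tiles enriched in ESC with at least 20 ESC reads, the both-enriched tiles made up 4.55%.

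The both-enriched tiles carried much 5hmC in each cell type but still less in NPC than in ESC. Per tile, the NPC 5hmC library had a median of 24 reads (20 to 109) over a median of 21 NPC input reads (4 to 49). The ESC 5hmC library had a median of 68 reads (20 to 248) over a median of 15 ESC input reads (3 to 39). The median enrichment was 4.58-fold in NPC, with a 5th to 95th percentile of 2.76 to 9.12, and 2.97-fold in ESC, with 2.07 to 5.69. Over all kept tiles the median enrichment was 0.869-fold in NPC and 0.565-fold in ESC.

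Because both DNAs shared a tube, 5hmC reads per input read can be set side by side between the cell types. Summed over the both-enriched tiles, 56287 NPC 5hmC reads stood against 45453 NPC input reads, or 1.24 per input read (1.22 to 1.25). In ESC 157129 5hmC reads stood against 33385 input reads, or 4.71 per input read (4.65 to 4.76). The NPC/ESC ratio of 5hmC per input was 0.263 (0.259 to 0.268), against 0.186 over chromosomes 1 to 19. NPC thus fell short of the ESC level in these tiles, although the rule favoured tiles with many NPC reads. These tiles held 3.29% of the NPC 5hmC reads and 2.23% of the ESC 5hmC reads, with 0.706% of the NPC input and 0.675% of the ESC input.

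**Figure D1:**
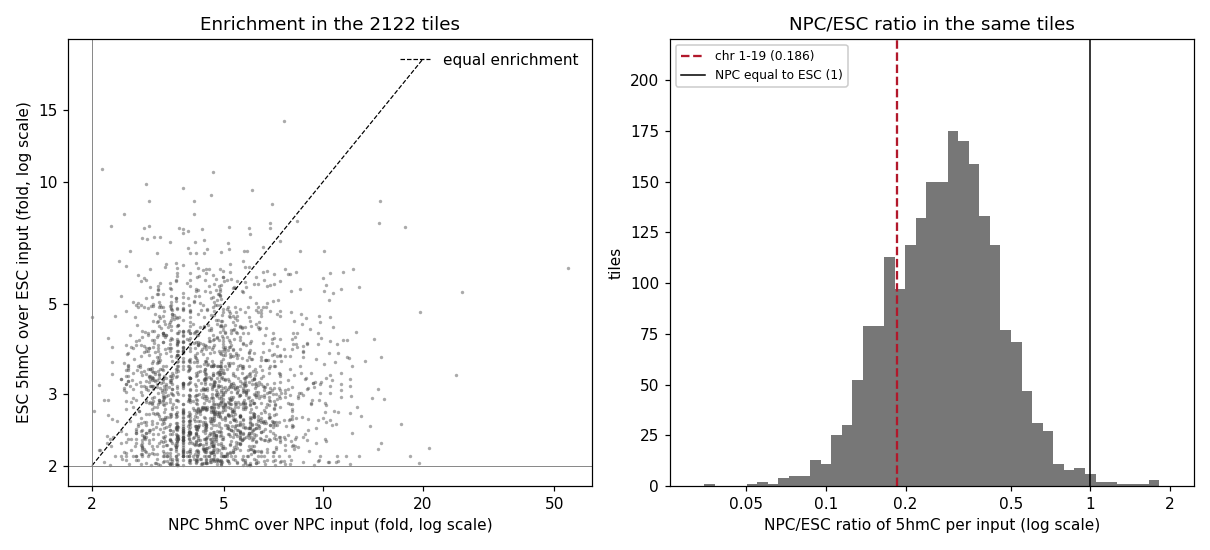
Left, enrichment of 5hmC over own input in NPC (x axis) and ESC (y axis), both as fold on log scales, with 1 point per both-enriched tile, grey lines at the threshold of 2 and a dashed line of equal enrichment. Right, number of tiles by NPC/ESC ratio of 5hmC per input (log scale), with lines at 0.186, the value of chromosomes 1 to 19, and at 1; most tiles lie between these lines.

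The ratio varied widely among the tiles. It ran from 0.0372 to 1.79 with a median of 0.287 (quartiles 0.202 and 0.385). In 1682 tiles (79.3%) it lay above the autosomal 0.186, and in 584 (27.5%) more than 2-fold above it. In 29 tiles it lay more than 2-fold below 0.186, so that tiles could meet the rule at a ratio well under the autosomal one. The 95% interval of the ratio lay below 1 in 1737 tiles (81.9%) and included 1 in 385. No tile had an interval above 1. Since tiles with many NPC reads by chance were favoured by the rule, the ratio is also raised by the choice itself.

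Reads of one strand can choose tiles while reads of the other strand measure them, which leaves the choice out of the value. With the read limits lowered to 10 per 5hmC strand, the input limits lowered in proportion and no strand limit, 3619 tiles were chosen on plus-strand reads and 3695 on minus-strand reads. These are not the 2122 tiles, but tiles found by the same rule at lower depth. The level of a set of tiles is given from here on as its 5hmC reads per input read divided by the same value over chromosomes 1 to 19, 0.2655 in NPC and 1.424 in ESC. On the strand that did not choose them, 5hmC per input stood at 2.93 times the autosomal level in NPC (2.88 to 2.97) and at 2.42 times in ESC (2.39 to 2.45) for those chosen on the plus strand. For those chosen on the minus strand the values were 2.89 in NPC (2.84 to 2.93) and 2.40 in ESC (2.37 to 2.43). Enrichment in both cell types thus recurred in reads that had no part in the choice, at a lower level than on the choosing strand, where NPC stood at 5.32 and 5.40 times and ESC at 3.66 and 3.67 times the autosomal level.

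On the other strand these tiles had an NPC/ESC ratio of 0.226 (0.221 to 0.230) and 0.224 (0.220 to 0.2285), which lay above the autosomal 0.186 and below the 0.263 of the 2122 tiles. Tile by tile, 2-fold enrichment on the other strand was met in NPC by 64.1% and 63.4% of the chosen tiles, and in ESC by 54.5% and 53.3%. It was met in both cell types at once by 37.9% and 37.5%, against 4.19% and 4.20% of all tiles kept on that basis. Most of the chosen tiles were thus not called in both cell types again on the other strand.

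The tiles with the highest enrichment in both cell types were ranked by the lower of their NPC and ESC enrichments. The first, chr11:118330001-118335000 of build mm9, had 37 distinct reads in the NPC 5hmC library and 9 in the NPC input, against 95 in the ESC 5hmC library and 7 in the ESC input. NPC enrichment reached 14.9-fold (7.30 to 30.3), against 8.94-fold (4.25 to 18.8) for ESC. This gave an NPC/ESC ratio of 0.310 (0.111 to 0.868). No annotation or sequence of mm9 was used here, so that tiles are given by position without gene names.

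The next tile, chr4:148185001-148190000, had 25 reads in NPC 5hmC and 11 in NPC input, against 85 in ESC 5hmC and 7 in ESC input. Its enrichments were alike, 8.35-fold (4.16 to 16.75) for NPC and 8.0-fold (3.79 to 16.9) for ESC. The tile chr17:48015001-48020000 held 39 reads in NPC 5hmC and 21 in NPC input, against 136 in ESC 5hmC and 12 in ESC input. NPC reached 6.92-fold (4.09 to 11.7) at that tile and ESC 7.67-fold (4.30 to 13.7). Its ratio was 0.168 (0.0770 to 0.368). Across the 10 highest tiles NPC enrichment ran from 6.88 to 17.7 and ESC enrichment from 6.73 to 14.1. The ESC value was highest at chr11:35685001-35690000, where 110 ESC 5hmC reads stood over 5 input reads.

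Few input reads lay behind several of these values. At chr3:147630001-147635000 and chr2:57480001-57485000 each input held 3 to 6 reads, and the intervals of the ratio there reached from 0.0821 to 1.46 and from 0.107 to 1.70. In the other 8 of the 10 tiles the interval of the ratio lay below 1. Over all, 70 tiles were enriched at least 5-fold in both cell types and 927 at least 3-fold.

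Among the 417 tiles with at least 20 reads in each input, the highest NPC/ESC ratio was at chr5:112215001-112220000. NPC had 47 reads in 5hmC and 22 in input at this tile, against 70 and 24 for ESC, a ratio of 0.734 (0.3715 to 1.45). NPC enrichment was 7.95-fold (4.815 to 13.1) and ESC enrichment 2.02-fold (1.28 to 3.20), so that the tile lay just above the ESC limit. The following tiles, chr8:122820001-122825000, chr7:51610001-51615000, chr13:51320001-51325000 and chr2:31355001-31360000, had ratios of 0.7185, 0.693, 0.605 and 0.560. The intervals of all 5 included 1, so that counting error alone does not separate the NPC and ESC levels there. The best covered was the tile on chromosome 2, with 68 reads in NPC 5hmC and 27 in NPC input, against 113 in ESC 5hmC and 25 in ESC input, and an interval of 0.302 to 1.04.

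At the other end, chr8:123095001-123100000 had 21 reads in NPC 5hmC and 35 in NPC input, against 227 in ESC 5hmC and 20 in ESC input. Enrichment was 2.28-fold (1.335 to 3.90) for NPC, against 7.79-fold (4.96 to 12.2) for ESC. The ratio there was 0.0546 (0.0271 to 0.110). The tiles chr15:85730001-85735000, chr11:116465001-116470000, chr11:117925001-117930000 and chr5:115995001-116000000 followed, with ratios of 0.0763, 0.0804, 0.0870 and 0.0917. All 5 intervals lay below the autosomal 0.186. Such tiles held 175 to 227 ESC 5hmC reads, and NPC retained 20 to 26. In chr11:116465001-116470000, 75% of the NPC reads fell in a single 500-base window, against 30.9% of the ESC reads.

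The ratio passed 1 in 13 tiles, which were singled out after their values were seen. Their inputs held 4 to 16 reads in NPC and 6 to 16 in ESC, and each interval of the ratio included 1. The tile with most NPC 5hmC reads of all, chr3:153880001-153885000, was among them. NPC had 109 reads in 5hmC and 7 in input at this tile, against 65 and 7 for ESC. NPC enrichment was 55.0-fold (26.2 to 115.2), against 6.13-fold (2.88 to 13.05) for ESC, and the ratio was 1.67 (0.581 to 4.81). Its reads were spread over the tile, with 16.5% of the NPC reads in the richest 500-base window, and the plus strand held 30.3% of the NPC reads and 29.2% of the ESC reads.

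Values next to the limits show how the tiles were bounded. Just inside the NPC limit lay chr11:116465001-116470000, chr16:35515001-35520000 and chr3:101195001-101200000, with NPC enrichments of 2.005, 2.02 and 2.10. Just outside lay chr17:30885001-30890000, at 1.955, and chr16:35480001-35485000, at 1.51; no other tile with enough reads, and within the strand limit, passed the ESC limit alone. Just inside the ESC limit, 3 tiles had 38 ESC 5hmC reads over 13 input reads, an enrichment of 2.002. Just outside it, 3 tiles had 55 over 19, an enrichment of 1.998.

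Both-enriched tiles were mostly single. Of 2122, 1833 had no both-enriched tile beside them, and 289 (13.6%) lay in runs of 2 to 5. A neighbouring tile was itself both-enriched in 7.35% of cases (6.58 to 8.18), against 0.468% (0.454 to 0.482) beside a kept tile at large. At a distance of 50 kb the share was still 4.10% (3.52 to 4.74). Beside NPC-only tiles, meaning the 1467 tiles (0.324% of those kept) that met the same limits but stayed below 2-fold in ESC, it was 3.82% (3.15 to 4.575). Beside the 44526 other tiles that were enriched in ESC with at least 20 ESC reads (9.83% of those kept), called other ESC-rich tiles below, it was 1.77% (1.68 to 1.86).

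The longest run covered 25 kb, chr2:164945001-164970000. Its 5 tiles had 50, 23, 46, 46 and 23 reads in the NPC 5hmC library in order along the chromosome, against 125, 70, 78, 78 and 90 in the ESC 5hmC library. The NPC input held 113 reads over the run and the ESC input 94. Every tile of the run thus had 2.02-fold or more in ESC and 2.81-fold or more in NPC.

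Over the whole run 5hmC per input stood at 6.27 times the autosomal level in NPC (4.96 to 7.91) and at 3.29 times in ESC (2.64 to 4.115). For the run the NPC/ESC ratio was 0.355 (0.257 to 0.490). The runs of 20 kb were chr5:114740001-114760000, chr8:122860001-122880000 and chr4:41605001-41625000, with NPC/ESC ratios of 0.362 (0.244 to 0.537), 0.260 (0.182 to 0.373) and 0.152 (0.108 to 0.215). Within the run on chromosome 5 a single tile, chr5:114745001-114750000, held 62 of the 137 NPC 5hmC reads. The run on chromosome 4 was more evenly filled, with 26 to 33 NPC reads per tile, and had the richest ESC level of these runs, 4.27 times the autosomal level (3.39 to 5.38).

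**Figure D2:**
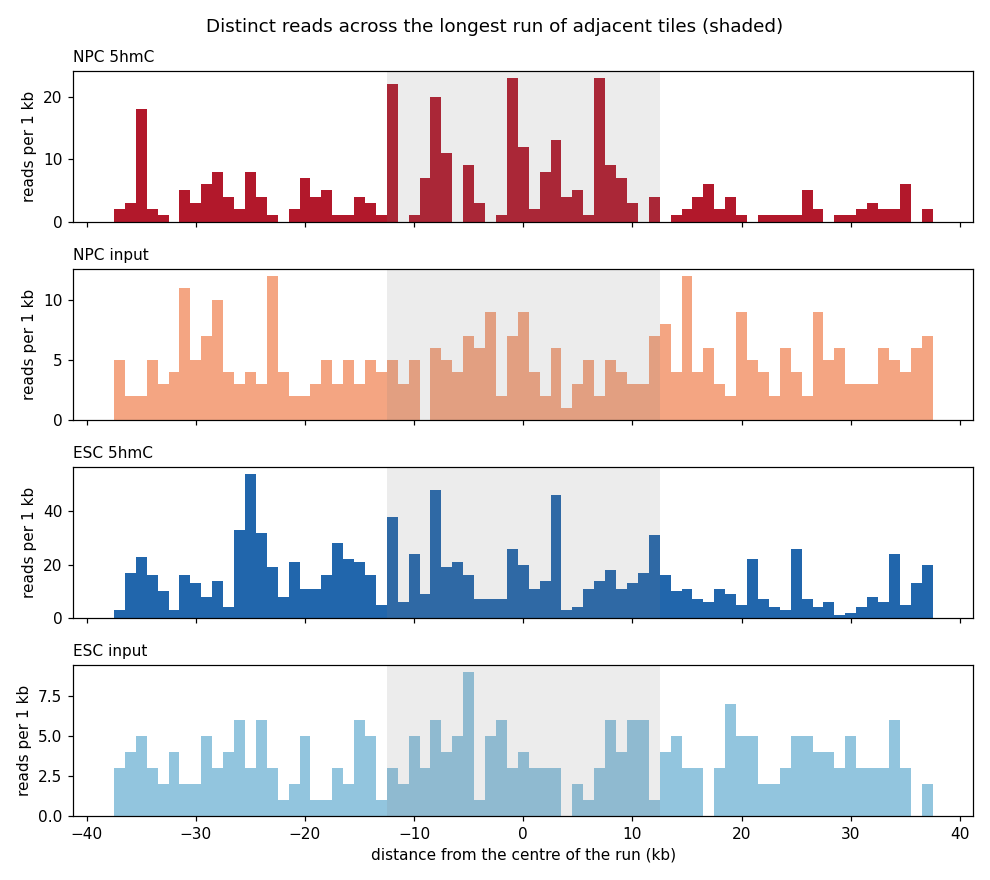
Distinct reads per 1 kb (y axes, each with its own scale) in the NPC 5hmC, NPC input, ESC 5hmC and ESC input libraries by distance from the centre of the longest run (x axis, kb), with the run shaded. In NPC the 5hmC reads stood in narrow peaks of up to 23 per kb inside the run, while the inputs stayed at or below 9 per kb there.

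Both-enriched tiles lay in wider stretches rich in 5hmC. Both-enriched tiles themselves were left out of all values of neighbours. Those directly beside a both-enriched tile stood at 1.58 times the autosomal level in NPC (1.56 to 1.60) and at 1.985 times in ESC (1.97 to 2.0). At 50 kb the levels were 1.30 in NPC (1.29 to 1.32) and 1.78 in ESC (1.76 to 1.79), and at 200 kb 1.22 in NPC (1.2 to 1.24) and 1.65 in ESC (1.635 to 1.67). The both-enriched tiles' own levels, 4.66 in NPC and 3.30 in ESC, are those that chose them, and nothing is read from the step between a tile and its neighbours.

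Around these tiles the NPC/ESC ratio fell below the autosomal value. It was 0.1485 (0.146 to 0.151) in the adjoining tiles and 0.137 (0.1345 to 0.139) at 50 kb, under the 0.186 of chromosomes 1 to 19. Both-enriched tiles are left out of these values, so that they are not set against the ratio of the tiles themselves. The autosomal 0.186 keeps those tiles, so that leaving them out lowers the ratio of the neighbours against it. The size of this effect was not measured. Tiles beside other ESC-rich tiles had lower levels, 1.18 in NPC (1.17 to 1.18) and 1.80 in ESC (1.80 to 1.81), and a ratio of 0.122 (0.121 to 0.122). The NPC level beside both-enriched tiles was higher than beside other ESC-rich tiles by more than counting error at each distance up to 200 kb. Beside NPC-only tiles the NPC level was 1.5 (1.47 to 1.52) and the ESC level 1.48 (1.46 to 1.5), so that these tiles differed from the both-enriched ones mainly in the ESC level around them.

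**Figure D3:**
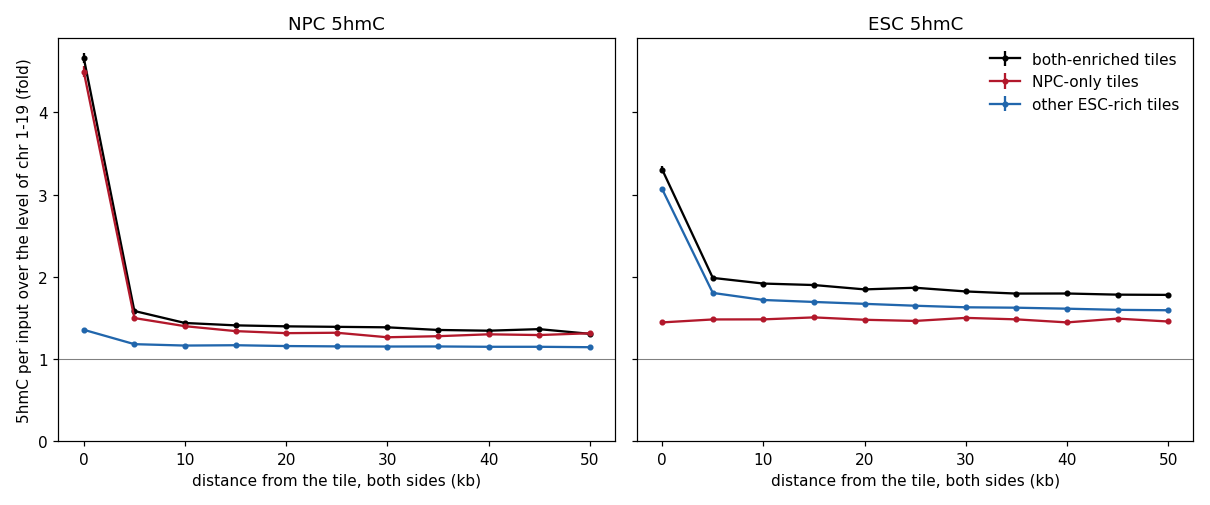
5hmC per input of NPC (left) and ESC (right) as fold over the level of chromosomes 1 to 19 (y axis) in tiles at 0 to 50 kb from both-enriched, NPC-only and other ESC-rich tiles (x axis, both sides pooled); bars are 95% counting intervals. Directly beside both-enriched tiles NPC stood at 1.58 and ESC at 1.985, and both were above 1 at 50 kb; the values at 0 kb are set by the rule.

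Within the tiles, 5hmC of each cell type, summed over tiles, was concentrated where the other was richest. Each tile was divided into 10 windows of 500 bases, a feature the rule did not use. The window richest in ESC 5hmC held 21.6% of the NPC 5hmC reads (21.2 to 21.9), against 11.5% of the NPC input reads (11.2 to 11.8), where an even spread would put 10% in each window. The window richest in NPC 5hmC held 17.2% of the ESC 5hmC reads (17.0 to 17.35), against 10.5% of the ESC input reads (10.2 to 10.9). The richest window was the same in both cell types in 640 tiles (30.2%, 28.2 to 32.2) and the same or the next one in 1000 (47.1%). In most single tiles the richest windows thus differed. The shares for windows placed at random were not computed.

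Set around the ESC-richest window, the NPC level was 8.99 and 8.53 times the autosomal level in bins of 250 bases on either side of its centre and dropped to 3.18 and 3.135 times at 1875 bases from it. The ESC level, which fixed the centre, was 7.89 and 7.72 times there. Set around the NPC-richest window, ESC peaked at 5.43 and 5.33 times and fell to 2.49 and 2.68 times at 1875 bases. The inputs were nearly flat, and at the centre of the ESC-richest window they rose to 1.14 and 1.18 times their mean in NPC and to 1.09 and 1.15 times in ESC; the part of this rise in the result was not tested. Signal of one cell type was thus concentrated at the other's maximum.

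**Figure D4:**
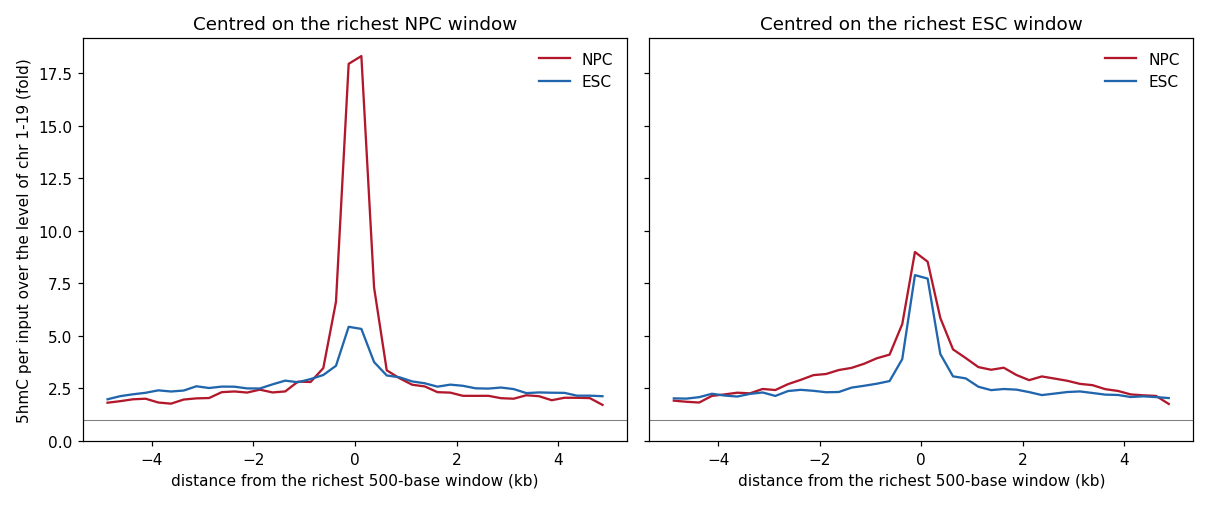
5hmC per input as fold over the level of chromosomes 1 to 19 (y axis) in NPC and ESC by distance from the 500-base window richest in NPC reads (left) or in ESC reads (right) of each both-enriched tile (x axis, kb, bins of 250 bases). The curve of the cell type that set the centre is raised there by that choice; the other curve also peaks there, at 5.43 times for ESC on the left and at 8.99 times for NPC on the right.

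The richest window held a median of 38.5% of a tile's NPC 5hmC reads and 26.5% of its ESC 5hmC reads, against 22.2% in the NPC input and 23.5% in the ESC input. In 459 tiles (21.6%) over 50% of the NPC reads fell in a single window, against 51 tiles (2.40%) for ESC. NPC had fewer reads per tile, which alone raises the share in the fullest window, so that the sizes cannot be set against each other directly. NPC reads nonetheless reached 6 to 8 of the 10 windows in the commonest cases, with 485, 559 and 400 tiles.

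NPC-only tiles and other ESC-rich tiles differed from the both-enriched ones in this measure. In NPC-only tiles the ESC-richest window held 27.1% of the NPC 5hmC reads (26.6 to 27.55), and both cell types shared their richest window in 39.6% of tiles (37.1 to 42.2). In other ESC-rich tiles these values were 18.6% (18.4 to 18.7) and 21.3% (20.9 to 21.7). Read numbers differed between the sets as well. Other ESC-rich tiles had a median of 6 NPC 5hmC reads, against 24 in both-enriched tiles. NPC-only tiles had a median of 35 ESC 5hmC reads, against 68. With few reads the richest window is poorly fixed, and the part of read number in these differences was not tested. Even in NPC-only tiles, whose ESC enrichment was below 2-fold over the whole tile, ESC stood at 3.06 and 3.25 times the autosomal level around the centre of the NPC-richest window. A common maximum of NPC and ESC 5hmC was therefore no feature of the both-enriched tiles alone.

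Strand was limited by the rule in NPC but not in ESC. In 42 both-enriched tiles (1.98%, 1.43 to 2.67) more than 75% of the ESC 5hmC reads lay on a single strand. The share was 4.62% (4.505 to 4.745) over all 118098 kept tiles with at least 20 ESC reads. It was 5.32% (4.225 to 6.59) in NPC-only tiles and 2.90% (2.75 to 3.06) in other ESC-rich tiles. Other ESC-rich tiles met no NPC strand limit, and NPC-only tiles had fewer ESC reads. The part of each in these differences was not tested. Among the 463 tiles removed by the NPC strand limit alone, the ESC share was 24% (20.15 to 28.1). The limit on NPC reads thus also removed tiles with skewed ESC reads. Summed over the both-enriched tiles, the plus strand held 50.15% of the NPC and 50.3% of the ESC 5hmC reads.

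Stacked reads, meaning further reads at a position and strand already counted, were left out by the rule. They made up 1.98% of all deposited NPC 5hmC reads in both-enriched tiles and 2.51% of the ESC 5hmC reads. Over all kept tiles they made up 1.46% in NPC and 2.06% in ESC. With stacked reads included, the NPC/ESC ratio of the same tiles was 0.262 (0.257 to 0.266).

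The tiles were unevenly spread over chromosomes. Chromosome 11 had the highest share of kept tiles that were both-enriched, 0.913% (0.795 to 1.04), followed by chromosome 4 with 0.780% (0.681 to 0.890), chromosome 5 with 0.751% (0.654 to 0.860) and chromosome 8 with 0.664% (0.565 to 0.775). These 4 chromosomes held 800 of the 2122 tiles (37.7%) and 22.8% of the kept tiles. The lowest shares were on chromosome 3, at 0.214% (0.165 to 0.273), and chromosome 14, at 0.216% (0.159 to 0.287). The interval lay above the autosomal 0.469% on 6 chromosomes and below it on 7. These intervals treat tiles as independent, and both-enriched tiles clustered, so that the intervals understate the uncertainty. Measured against ESC-enriched tiles alone, the spread was narrower, with 6.17% of them both-enriched on chromosome 4, 6.01% on chromosome 11, 2.99% on chromosome 3 and 2.87% on chromosome 14.

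The NPC/ESC ratio differed less between chromosomes than the number of tiles did. The NPC/ESC ratio of both-enriched tiles was lowest on chromosome 11, at 0.232 (0.220 to 0.244), and highest on chromosomes 13 and 14, at 0.327 (0.297 to 0.360) and 0.318 (0.282 to 0.360). Chromosomes with many such tiles did not have higher ratios: chromosome 4 stood at 0.245 (0.233 to 0.258) and chromosome 5 at 0.261 (0.248 to 0.276). Depth differed between chromosomes too, with a median of 29 summed input reads per kept tile on chromosome 11, 24 on chromosome 4, 21 on chromosome 3 and 22 on chromosome 14. The ratio was taken from reads the rule used, and it was lower in tiles with more input reads, as given below. The part of depth in its differences between chromosomes was not tested. Among tiles with 35 to 44 input reads the share both-enriched was 1.51% (1.2 to 1.87) on chromosome 11, 2.11% (1.70 to 2.59) on chromosome 4, 0.941% (0.590 to 1.42) on chromosome 3 and 0.526% (0.272 to 0.917) on chromosome 14. With 25 to 34 reads it was 0.609% (0.446 to 0.811) on chromosome 11, 0.721% (0.545 to 0.935) on chromosome 4, 0.260% (0.161 to 0.397) on chromosome 3 and 0.409% (0.265 to 0.603) on chromosome 14. With at least 45 reads it was 3.18% (2.51 to 3.96), 3.69% (2.86 to 4.675), 1.92% (0.834 to 3.75) and 0.911% (0.249 to 2.32) on these chromosomes in the same order. The intervals of chromosomes 11 and 4 thus lay above that of chromosome 14 with 35 to 44 and at least 45 reads. They overlapped it with 25 to 34. Above chromosome 3 lay both with 25 to 34 reads, chromosome 4 alone with 35 to 44, and neither with at least 45. With 15 to 24 reads all overlapped. The intervals of chromosomes 11 and 4 overlapped each other in each range. Chromosomes 5 and 8 were not measured within such ranges.

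Both-enriched tiles gathered towards the distal ends of the chromosomes. Mouse autosomes carry the centromere at their start in the build. The last 10% of each chromosome, by length, held 623 tiles (29.4%, 27.4 to 31.35), against 10.4% of the kept tiles, and the first 10% held 67 (3.16%, 2.455 to 3.99), against 7.44%. The share in the last 10% was higher than for NPC-only tiles, 23.45% (21.3 to 25.7), and for other ESC-rich tiles, 19.2% (18.8 to 19.5). Kept tiles in the last 10% also had more input reads, with a median of 29 against 24 over all kept tiles.

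The excess at the distal ends was also seen within ranges of summed input reads. Among kept tiles with 25 to 34 summed input reads, 1.15% (0.989 to 1.32) were both-enriched in the last 10%, against 0.433% (0.396 to 0.472) in the rest of the chromosome. With 35 to 44 reads it was 2.30% (2.03 to 2.61) in the last 10%, against 1.02% (0.934 to 1.11). Counted over ESC-enriched tiles with at least 20 ESC reads, the last 10% had 8.39% (7.41 to 9.46) in that range of inputs, against 5.005% (4.6 to 5.44). Of kept tiles with 15 to 24 reads, 0.350% were both-enriched in the last 10%, against 0.0831% in the rest. With at least 45 reads it was 3.50%, against 1.98%. Input reads were not matched within a range, and the part of depth in the excess was not tested.

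**Figure D5:**
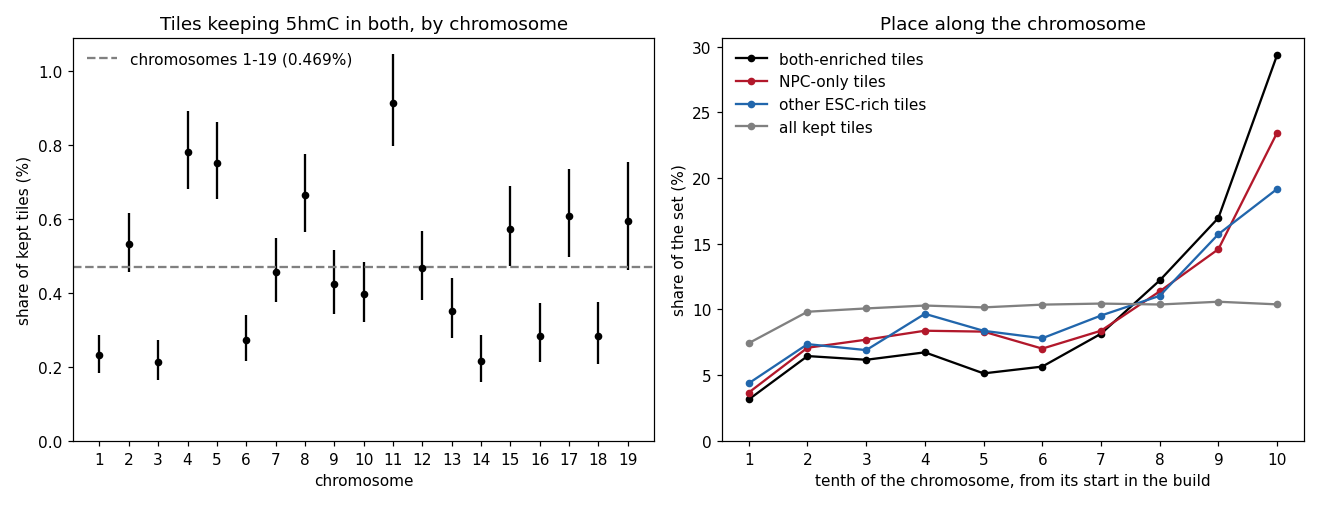
Left, share of kept tiles that were both-enriched on each chromosome (points, with 95% binomial intervals; dashed, the autosomal 0.469%). Right, share of both-enriched, NPC-only, other ESC-rich and all kept tiles along the chromosome in 10 equal parts (x axis, from its start in the build); both-enriched tiles reached 29.4% in the last part.

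At the scale of 1 Mb, 790 of 2413 windows held a both-enriched tile and 112 held 5 or more. Those 112 windows held 883 of the tiles (41.6%) in 4.89% of the kept tiles. They were taken for their counts, so that the gap between these shares follows in part from that choice. The densest window, picked after the counts were seen, was chr8:122000001-123000000 with 30 both-enriched tiles among 199 kept (15.1%), and the next was chr8:123000001-124000000 with 22 (11.1%). Over all their kept tiles, with both-enriched ones included, these windows stood at 2.04 and 2.27 times the autosomal level in NPC. In ESC they stood at 2.37 and 2.24 times. The window chr5:112000001-113000000 held 18 both-enriched tiles. It stood further above the cell type's own autosomal level in NPC, 2.24 times, than in ESC, 1.73 times. The both-enriched tiles raise these window levels by their choice, and levels without them were not computed.

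More tiles were found where more input reads lay. The share both-enriched rose from 0.0137% of kept tiles with 5 to 14 summed input reads to 0.103%, 0.519%, 1.24% and 2.29% of those with 15 to 24, 25 to 34, 35 to 44 and at least 45 reads. Along the same order the NPC/ESC ratio fell, from 0.876 (0.590 to 1.30) in the 10 tiles with fewest input reads to 0.205 (0.199 to 0.212) in the 476 with most. The median NPC enrichment fell from 17.4-fold to 3.29-fold over these groups, while the median ESC enrichment fell from 4.31-fold to 2.91-fold. The highest ratios were thus those of the least covered tiles, and the part of coverage in them was not tested. With a minimum of 10 in place of 20 reads, 8490 tiles met the rule and their ratio was 0.1945 (0.193 to 0.196), and with a minimum of 30 reads 463 tiles did, with 0.3535 (0.341 to 0.366).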

How the data were processed

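All 4 libraries were analysed. The submitters' processing notes, which name no role, list Bowtie 0.12.7 and build mm9. Each line of the deposited files gives a read position extended to 350 bases, its strand and the read count there, read from the values, in which these counts are not scaled by the authors. How reads with several matches were treated is not known here. Distinct reads (1 per line) were placed in 5 kb tiles by their midpoint. Ratios and intervals were computed in Python 3.11.15 (scipy 1.17.1, pandas 2.3.3, numpy 2.4.6, matplotlib 3.10.9). Intervals are log-normal for ratios of counts, with 0.5 reads added for single tiles, and Clopper-Pearson for shares. The depth per library stands above. With 1 library per group no test was made. Alternatives changed tile size and offset, the limits, the pseudocount, the inputs and the depth. The code of the rule was run on simulated counts in which some tiles were raised by known folds. These counts had no regional 5hmC or strand skew, and cannot show how the choice affects the ratio. The tiles, comparisons and lists were chosen with earlier results of these data known. Named tiles are the 10 highest by the lower enrichment, the 5 highest and 5 lowest ratios among tiles with 20 reads in each input, the longest runs (3 tied at 20 kb) and those beside each fold limit. Planned CpG, GC and gene context, with its gene lists, were not run, for want of a sequence and annotation on mm9. No background was subtracted.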

Additional observations from a re-analysis of the deposited data

Results flagged for a closer look

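Chromosome X lay outside the rule, and 3 of its 23910 kept tiles (0.0125%) met the same limits, against 0.469% on the autosomes. They are listed because the comparisons above did not use this chromosome; their enrichment in both cell types is what the limits require. The tile chrX:137530001-137535000 had 36 reads in NPC 5hmC and 5 in NPC input, against 28 in ESC 5hmC and 6 in ESC input. Its enrichment was 25-fold (10.2 to 61.3) for NPC, against 3.08-fold (1.31 to 7.22) for ESC. At chrX:50825001-50830000 NPC reached 21.15-fold (9.18 to 48.7), against 5.115-fold (1.67 to 15.6) for ESC, and at chrX:100650001-100655000 NPC reached 11.8-fold (5.19 to 26.85), against 3.89-fold (1.57 to 9.65). In the first and second of these tiles 89.3% and 92% of the ESC reads lay on a single strand. Kept tiles on chromosome X held a median of 10 summed input reads, against 24 on the autosomes. Of 72925 autosomal kept tiles with 5 to 14 summed input reads, 10 (0.0137%) were both-enriched. Tiles of chromosome X were not limited to that range, and the part of depth in their share was not tested.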

How the results depend on the processing

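No paired analysis was possible because each group held 1 library, which also left no replicate to leave out. The planned settings on CpG content and gene context were not run, for want of a sequence and annotation on mm9. The NPC/ESC ratio was below 1 in every setting tried; levels above those of kept tiles follow from the rule and are given for their size alone. The number of tiles, 2122 in the main setting, became 9184 with tiles of 2 kb, 559 with 10 kb, 8490 and 463 with a minimum of 10 and 30 reads, 927 with a fold of 3 and 766 with ESC 5hmC reads thinned to the NPC total. It stayed within 1.5 times of 2122 in the other 11 settings. The ratio, 0.263, moved beyond its interval to 0.242 with a pseudocount of 5 reads, 0.271 with tiles of 2 kb, 0.1945 and 0.3535 with a minimum of 10 and 30 reads, 0.298 and 0.220 with folds of 1.5 and 3, 0.284 with summed inputs, 0.2815 without the strand limit, 0.195 with thinned ESC reads (scaled back for the thinning), and 0.226 and 0.224 on the strand that did not choose. Set against kept tiles, NPC 5hmC per input, 4.67 times, became 5.70 with tiles of 2 kb, 4.17 with 10 kb, 3.33 and 6.45 with a minimum of 10 and 30 reads, 5.00 with a fold of 3, 4.81 with summed inputs, 4.51 with at least 20 summed input reads, 4.97 without the strand limit and 4.36 with thinned ESC reads. ESC 5hmC per input, 3.30 times, became 3.59 with a pseudocount of 5, 3.24 with tiles shifted by 2500 bases, 3.91 and 2.94 with tiles of 2 and 10 kb, 3.185 and 3.39 with a minimum of 10 and 30 reads, 2.90 and 4.22 with folds of 1.5 and 3, 3.155 with summed inputs, 2.96 with at least 20 summed input reads and 4.15 with thinned ESC reads. The cause of these shifts was not tested. Settings chosen after seeing the data gave a ratio of 0.259 without the tiles that held over 50% of their NPC reads in a single window, and, in the 417 tiles with at least 20 reads in each input, a ratio of 0.231, an NPC level of 3.87 and an ESC level of 3.12. Beside tiles with no other both-enriched tile within 50 kb, the adjoining levels were 1.47 in NPC and 1.82 in ESC, against 1.58 and 1.985. At a limit of 65% in place of 75%, 15.9% of tiles had skewed ESC reads, against 22.97% of all kept tiles with at least 20 ESC reads. The NPC 5hmC library, with 3.755 reads per kept tile, set the depth limit.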
